A study of Oryctolagus cuniculus with 6 samples.

Results

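The genomic cluster of miR-500, miR-532 and miR-660 is a group of neighbouring microRNA (miRNA) genes, and 8 of its mature miRNAs were followed here among the 577 listed in small RNA libraries of rabbit seminal plasma extracellular vesicles. The 8 were taken by name from the table: miR-188-5p, miR-500-3p, miR-502a-3p, miR-502b-3p, miR-501-3p, both strands of miR-532 and miR-660-5p. They were selected on these same values, as neighbours that all had a lower mean in Sub-fertile than in Fertile vesicles, so the difference between the groups is described below and is not tested. The libraries came from sexually mature bucks of a California x New Zealand white cross, aged 10 to 12 months, which were placed by semen quality: the Fertile group holds males of high and the Sub-fertile group males of low seminal quality (n = 3 biological replicates each, 2.5 mL of seminal plasma per replicate). No animal was treated, and breed, tissue and vesicle preparation are the same in both groups. Records of fertility were not analysed here, and the labels do not state whether a replicate is the plasma of 1 male or of several.

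A miRNA gene is transcribed into a hairpin, which is cut into a duplex of a 5p and a 3p strand. Usually 1 strand of the duplex is kept by an Argonaute protein, where it guides the repression of transcripts that match its seed. Genes that lie close together can be cut from a common primary transcript, and in human and mouse the genes of this cluster sit in introns of CLCN5, an X-linked gene for an endosomal chloride and proton exchanger. The rabbit annotation has the same arrangement. RefSeq's gene table for another rabbit assembly, mOryCun1.1, was read for gene names and neighbours only. In it 8 hairpin genes lie inside CLCN5 in the order MIR532, MIR188, MIR502B, MIR500, MIR362, MIR501, MIR660 and MIR502A, with no other miRNA gene between them. All 8 members matched a gene of this table, and they come from 7 hairpins, as miR-532 gives both of its strands. In human, miR-500a-3p, miR-501-3p and miR-502-3p are close relatives in sequence, so reads of the rabbit 3p members may be hard to assign, and the labels do not say how that was done.

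Values are the deposited scaled CPM, which are counts divided by library depth and a scaling factor, from which whole counts were recovered. Libraries held 129387 to 772619 counts, fewest in Sub-fertile replicate 1, where 1 count is worth 6.24 units against 1.33 in Fertile replicate 1. That library stands apart: it has the largest scaling factor, 1.24 against 0.902 to 1.01 in the others. Several results that rest on it are given with and without it. Of 234 miRNAs tested, those at 10 or more in at least 3 of 6 libraries, 8 had an adjusted p under 0.05 (limma with Benjamini-Hochberg adjustment), and the median log2 difference of all 234, Sub-fertile minus Fertile, was -0.10. Among miRNAs that mark the source of the vesicles, the epithelial list summed to 96670 to 104006 in Fertile and 83613 to 137920 in Sub-fertile libraries, with 3 of 6 listed miRNAs in the table.

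The cluster was a small part of the cargo. Its 8 members together held 0.219%, 0.215% and 0.217% of all counts in Fertile replicates 1, 2 and 3, and 0.192%, 0.113% and 0.121% in the Sub-fertile replicates in the same order. The 95% exact binomial interval of the highest Sub-fertile share, that of replicate 1 (0.169% to 0.218%), overlaps that of Fertile replicate 1 (0.209% to 0.230%), and such intervals cover counting error only. On the scaled CPM scale the sum stood at 2258, 2248 and 2282 in the Fertile and at 1555, 1115 and 1340 in the Sub-fertile libraries. The 3 Fertile libraries therefore lay within 1 narrow band (2263 ± 17.6, SD, n = 3), while the Sub-fertile ones were lower and more spread (1337 ± 220, SD, n = 3), at 59.1% of the Fertile mean. As the cargo is measured in bulk, fewer vesicles that carry these miRNAs and less of them per vesicle cannot be told apart.

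The scaling bears on the first Sub-fertile library most. In plain CPM, which divides by library depth alone, the cluster sum was 2155 to 2193 in Fertile libraries and 1924, 1128 and 1209 in Sub-fertile replicates 1, 2 and 3. The groups did not overlap on either scale, but replicate 1 lay much nearer to Fertile in plain CPM than its 2 companions.

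**Figure D1:**
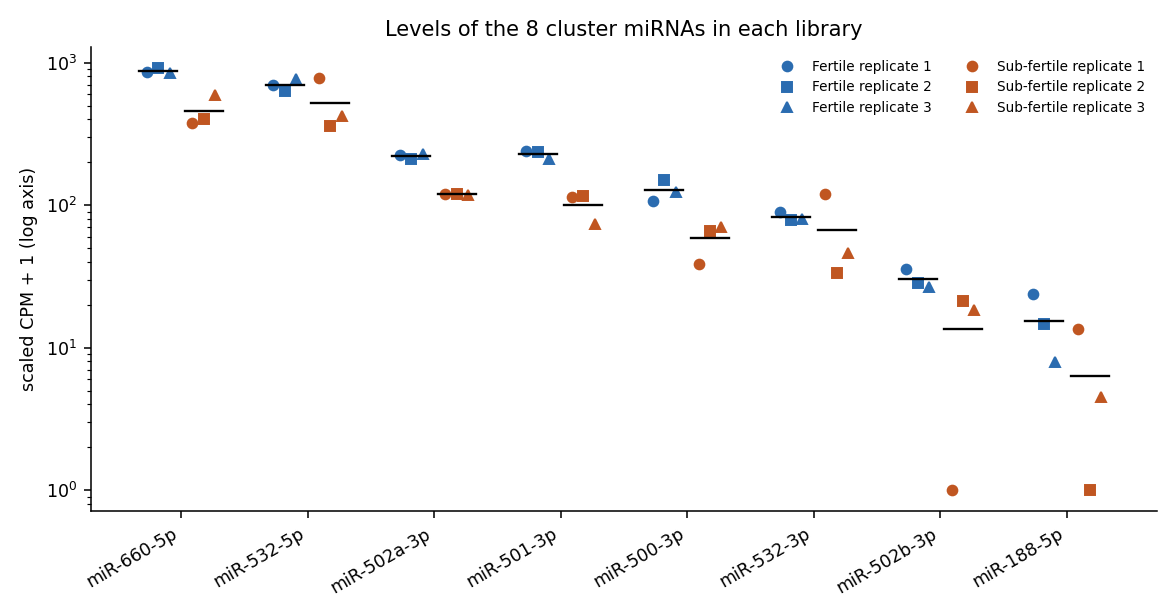
Level of each cluster member in scaled CPM plus 1 (log axis) in 3 Fertile (blue) and 3 Sub-fertile (orange) libraries, with the group mean as a black line. For 5 members all Sub-fertile points lie below all Fertile points; both miR-532 strands have a Sub-fertile replicate 1 above the Fertile libraries.

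The 2 most abundant members are 5p strands. miR-660-5p, which in human lung cancer cells targets the p53 regulator MDM2, stood at 853, 909 and 846 scaled CPM in the Fertile libraries and at 375, 404 and 595 in the Sub-fertile ones. Every Sub-fertile value lay below every Fertile value, with Sub-fertile replicate 3 the nearest to Fertile. The means were 869 ± 34.6 and 458 ± 120 (SD, n = 3 each), a log2 difference of -0.95 (SE 0.24). It rested on 365 to 640 counts per Fertile and 60, 99 and 342 counts per Sub-fertile library, the best counted of the differences in the cluster.

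miR-532-5p, which in human tumour cells targets the transcription factor RUNX3, was 693, 629 and 767 in the Fertile and 781, 359 and 419 in the Sub-fertile libraries. Sub-fertile replicates 2 and 3 lay well below Fertile, but replicate 1, on 125 counts, was the highest of all 6, so the groups overlapped. The log2 difference was -0.50 (SE 0.31) and became -0.84 without that library. The other strand of the same hairpin, miR-532-3p, was at a lower level, again highest in Sub-fertile replicate 1 and lowest in the 2 other Sub-fertile libraries. It stood at 88.0, 77.9 and 78.8 in the Fertile and at 119, 32.7 and 45.2 in the Sub-fertile libraries, on 19, 8 and 26 Sub-fertile counts. Its log2 difference was -0.53 (SE 0.50), and -1.06 without Sub-fertile replicate 1.

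The 3p strands of the miR-500, miR-501 and miR-502 hairpins are the second group of members. miR-501-3p, known from rodent neurons as a regulator of the glutamate receptor subunit GluA1, was 237, 236 and 209 in the Fertile and 112, 114 and 73.1 in the Sub-fertile libraries. The groups did not overlap, and the lowest value was in Sub-fertile replicate 3, the deepest library of its group. The mean went from 227 ± 16.1 to 99.9 ± 23.3 (SD, n = 3 each), a log2 difference of -1.20 (SE 0.29). miR-502a-3p had the tightest Sub-fertile values in the cluster. It stood at 223, 208 and 227 in the Fertile and at 119, 118 and 117 in the Sub-fertile libraries, a log2 difference of -0.89 (SE 0.25). The Sub-fertile values rested on 19, 29 and 67 counts. Their SD of 1.14 is below the worth of 1 count in replicate 1 (6.24 units) and replicate 2 (4.08), so nothing is read from their closeness.

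miR-500-3p was 107, 148 and 123 in the Fertile libraries, above the 37.5, 65.4 and 69.6 of the Sub-fertile ones without overlap, and had a log2 difference of -1.15 (SE 0.37). Its lowest value, in Sub-fertile replicate 1, rested on 6 counts, and the log2 difference was -0.88 without that library. Together with miR-502b-3p, these 3p strands made up 227 ± 16.1, 219 ± 9.82, 126 ± 20.8 and 29.1 ± 4.87 scaled CPM in Fertile vesicles (SD, n = 3) in the order miR-501-3p, miR-502a-3p, then miR-500-3p and miR-502b-3p. Their sum was 601, 619 and 584 in the Fertile and 269, 319 and 277 in the Sub-fertile libraries, with a Sub-fertile mean at 47.9% of the Fertile mean. If each read was counted for exactly 1 of the 4, this sum does not depend on how reads were split among them. The labels do not say if that was so.

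The 2 lowest members give imprecise differences. miR-502b-3p stood at 34.7, 27.2 and 25.5 in the Fertile and at 0, 20.4 and 17.4 in the Sub-fertile libraries. The count of 0 in Sub-fertile replicate 1 allows up to 3 counts, or 18.7 units, against 25.5 for the lowest Fertile value. The other values carry counting error as well, on 26, 14 and 11 Fertile counts and on 5 and 10 counts in Sub-fertile replicates 2 and 3. Its log2 difference of -2.03 (SE 1.16) depended on the handling of that 0: it was -1.03 in edgeR and -0.59 without the library. Summed over libraries there were 51 Fertile and 15 Sub-fertile counts, a ratio of Sub-fertile to Fertile of 0.509 with a 95% exact counting interval of 0.266 to 0.920.

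miR-188-5p, which in mouse bone marrow stromal cells shifts differentiation from bone to fat, rested on 17, 7 and 3 counts in Fertile and 2, 0 and 2 counts in Sub-fertile libraries. In scaled CPM these were 22.7, 13.6 and 6.95, and 12.5, 0 and 3.48, and the groups overlapped. The ratio of summed counts was 0.256, with a counting interval of 0.0652 to 0.736. It passed the filter on low values with 2 Fertile and 1 Sub-fertile libraries at 10 or more, and miR-502b-3p with 3 and 2.

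**Figure D2:**
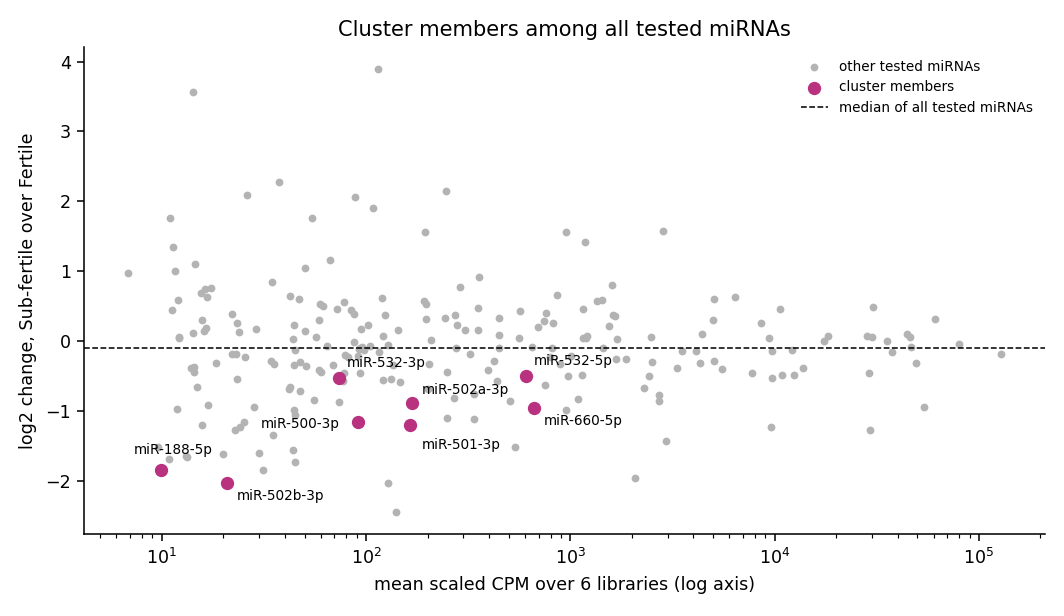
Log2 difference of Sub-fertile over Fertile (vertical axis) against the mean scaled CPM over 6 libraries (log axis) for the 234 tested miRNAs, cluster members in purple. The 8 members lie between -2.03 and -0.50, below the dashed median of all tested miRNAs at -0.10, with the 2 lowest-count members at the bottom left.

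All 8 members passed the filter and had a log2 difference below 0, with a median of -1.05, where 55.6% of all miRNAs tested lay below 0. Nothing is read from this count, since the members were chosen for it. The same choice favours the members in the counts that follow, here and in the next paragraph. Those counts are a description, and nothing is read from their excess over the shares of all tested. For 5 of the 8 every Sub-fertile library lay below every Fertile one, against 16.2% of all miRNAs tested; the exceptions were both miR-532 strands and miR-188-5p. In plain CPM it was also 5 of 8, against 12% of all tested. Under the test across all miRNAs 0 of 8 members passed an adjusted p of 0.05 (limma), where 3.42% of all tested did. At an unadjusted p under 0.05 (limma) were 4 of 8 members and 45 of all 234 miRNAs tested. With edgeR (3.42% called) and DESeq2 (6.84% called) on the recovered counts, 0 of 8 members passed as well. An unadjusted p under 0.05 was met by 4 members in each, and by 46 of the 234 miRNAs with edgeR and 41 with DESeq2.

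These calls turned on single libraries. Without Sub-fertile replicate 1, 4 of 8 members passed (miR-501-3p, miR-502a-3p, miR-532-5p and miR-660-5p), where 16.7% of all tested did. Without Sub-fertile replicate 3, 1 member passed, miR-660-5p, against 3.85% of all tested. Without Sub-fertile replicate 2 (2.14% of all called) or any 1 Fertile library (1.28%) 0 members passed. In these fits 3 or 4 members had an unadjusted p under 0.05 (limma), as did 27 to 37 of the 234 miRNAs. With a filter at 100, which left 5 members and 131 miRNAs in all, miR-660-5p and miR-501-3p passed, against 10.7% of those tested. With weights estimated for each library, which gave Sub-fertile replicate 1 a weight of 0.188, 5 members passed (those 4 and miR-500-3p), against 19.2% of all tested.

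**Figure D3:**
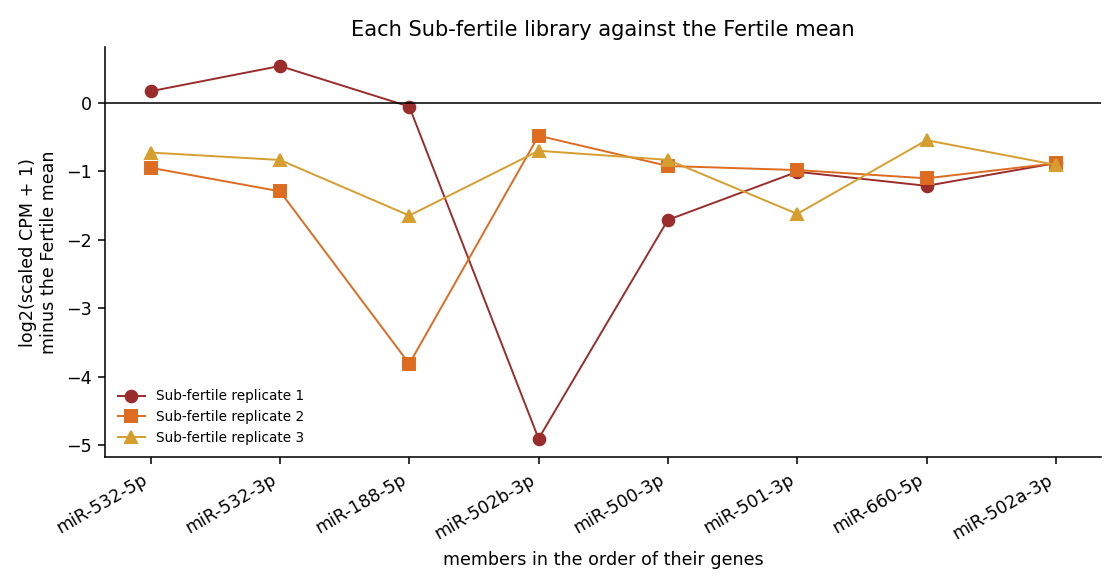
Difference of each Sub-fertile library from the Fertile mean on the log2(scaled CPM + 1) scale, with members in the order of their genes in CLCN5. Sub-fertile replicate 1 is above 0 for both miR-532 strands; the 2 deepest points, at -4.90 and -3.81, are values of 0.

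The 3 Sub-fertile libraries reached a similar median by different members. Over the 8 members the median difference from the Fertile mean was -0.94, -0.96 and -0.83 on the log2 scale in replicates 1, 2 and 3, where the median of all miRNAs tested was -0.15, -0.06 and 0.03. In replicate 1 the miR-532 strands stood on the other side of 0, at 0.17 for miR-532-5p and 0.54 for miR-532-3p, while miR-500-3p was at -1.71 and miR-660-5p at -1.21. In replicate 3 the order was different: miR-501-3p was the lowest of the better counted members, at -1.62, and miR-660-5p the highest, at -0.55. miR-502a-3p was nearly level, between -0.90 and -0.88 in the 3 libraries, which is closer than its 19, 29 and 67 counts can resolve.

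The cluster's inner make-up was nearly constant in the Fertile libraries. miR-660-5p took 38.4% ± 1.78 of the cluster sum, both miR-532 strands together 34.4% ± 2.82, and all 3p strands of miR-500, miR-501 and miR-502 together 26.6% ± 0.975 (SD, n = 3). In Sub-fertile replicates 1, 2 and 3, miR-660-5p took 24.1%, 36.3% and 44.4%, the miR-532 strands 57.8%, 35.2% and 34.7%, and the 3p strands 17.3%, 28.6% and 20.6%. Sub-fertile replicate 2 thus had close to the Fertile make-up at the lowest sum. Sub-fertile replicate 1 was the one library in which miR-532 held more than the rest of the cluster together, and without both miR-532 strands its cluster sum was the lowest of the 6, at 656 against 723 and 875 in the other Sub-fertile and 1437 to 1542 in the Fertile libraries.

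**Figure D4:**
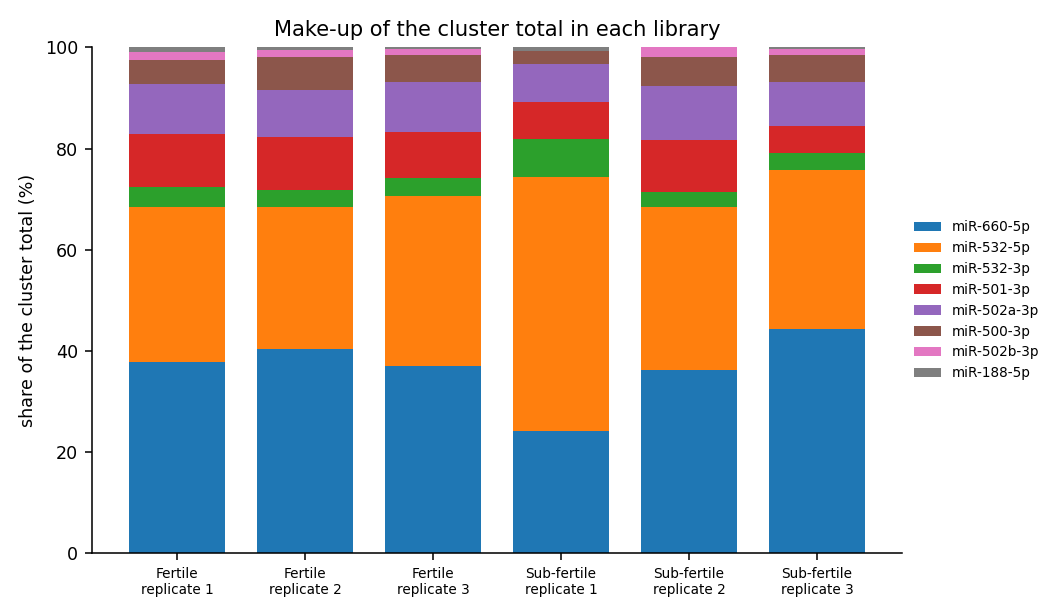
Share of the cluster sum held by each of the 8 members, in percent, for each library. The 3 Fertile bars are alike; in Sub-fertile replicate 1 miR-532-5p alone takes 50.2% and miR-660-5p 24.1%.

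The order of levels played no part in choosing the members, but the pairs tested were set by it in these same libraries. Over the 6 libraries it ran from miR-660-5p and miR-532-5p through miR-502a-3p, then miR-501-3p and miR-500-3p, to miR-532-3p, then miR-502b-3p and last miR-188-5p, from 664 ± 239 to 9.87 ± 8.14 scaled CPM (SD, n = 6), and miR-660-5p ranked 78 and miR-532-5p 81 of all miRNAs by mean. The order turned by group: in Sub-fertile means miR-532-5p (520) was above miR-660-5p (458) and miR-532-3p (65.5) above miR-500-3p (57.5), and in Fertile means miR-501-3p (227) was above miR-502a-3p (219). Mature miRNAs are of similar length, but ligation and amplification favour some sequences, so levels of different miRNAs compare only roughly. Between neighbours, 3 steps were in the same direction in 6 of 6 libraries: miR-532-5p above miR-502a-3p by 1.85 ± 0.43 on the log2 scale, miR-501-3p above miR-500-3p by 0.83 ± 0.50 and miR-532-3p above miR-502b-3p by 2.21 ± 2.32 (SD, n = 6). Each had p = 0.0312, the smallest a two-sided exact sign-flip permutation test can give with 6 libraries. Adjusted over the 7 neighbouring pairs it was 0.0729, so 0 pairs passed and 3 had an unadjusted p under 0.05. A pair could pass only if most of the 7 reached that smallest p, so 0 passing pairs does not show equal levels.

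In the other neighbouring pairs the mean difference was smaller than its SD, as it was for miR-532-3p above miR-502b-3p. miR-660-5p was above miR-532-5p in 5 of 6 libraries, by 0.10 ± 0.59 on the log2 scale (exact permutation p = 0.75), the exception being Sub-fertile replicate 1. miR-502a-3p and miR-501-3p were nearly equal, with a difference of 0.11 ± 0.30 (exact permutation p = 0.562), and miR-500-3p was 0.30 ± 0.98 above miR-532-3p (exact permutation p = 0.531). miR-502b-3p was 1.00 ± 2.69 above miR-188-5p (SD, n = 6 throughout; exact permutation p = 0.406).

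**Figure D5:**
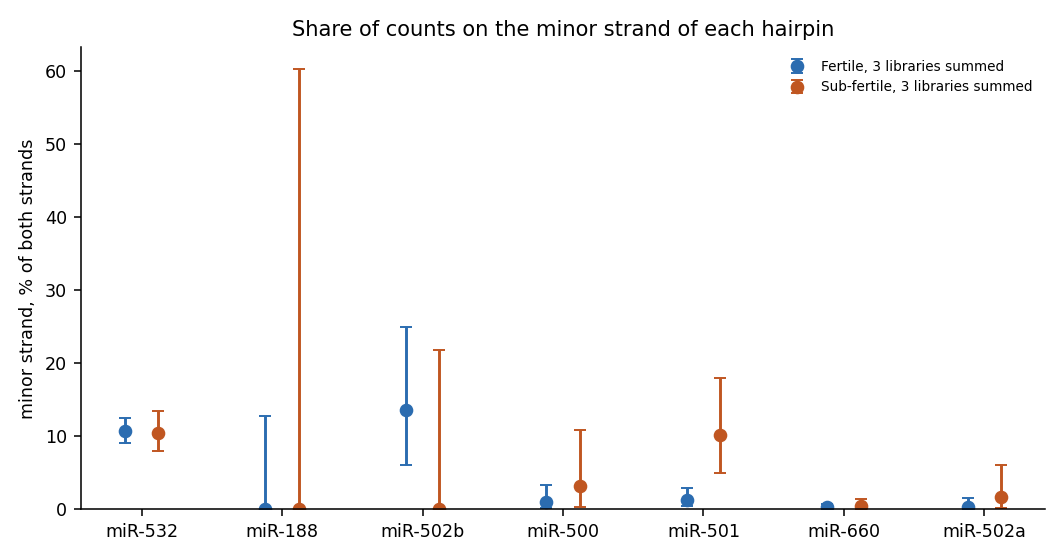
Share of counts on the less abundant strand of each of 7 hairpins, in percent of both strands, summed over 3 Fertile (blue) and 3 Sub-fertile (orange) libraries; bars are 95% exact binomial intervals, which cover counting error only. The miR-532 shares are nearly equal in both groups, and those of miR-501 are 1.27% and 10.2%.

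The hairpins differed in which strand was found. The 5p strand was the major one for miR-660, miR-532 and miR-188, and the 3p strand for miR-500, miR-501, miR-502a and miR-502b. The table lists 8 other strands of the cluster's hairpins, of which 0 reached the filter for testing. They are miR-188-3p and miR-362-3p, at 0 in every library, miR-362-5p, with 1 count in Sub-fertile replicate 3, and the minor strands of miR-500, miR-501, miR-502a, miR-502b and miR-660. With no filter on low values, 6 of them entered the fit and 0 passed (limma), where 2.17% of the 368 miRNAs did. The largest value among them was 31.2, for miR-501-5p in Sub-fertile replicate 1.

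miR-532 was the one hairpin with both strands well measured. Its 3p strand held 10.7% of 1314 counts in Fertile and 10.5% of 507 counts in Sub-fertile libraries, with 95% exact intervals of 9.04% to 12.4% and 7.93% to 13.5%. Within libraries the share ran from 8.33% to 13.2%, highest in Sub-fertile replicate 1, so both strands were high there together. For miR-660 the 3p strand held 6 of 1979 counts over all libraries.

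miR-501 looked different. Its minor 5p strand had 5, 0 and 0 counts in Fertile and 5, 3 and 2 counts in Sub-fertile replicates 1, 2 and 3, beside 178, 121 and 90 and 18, 28 and 42 counts of miR-501-3p. The share of the 5p strand was thus 2.73%, 0% and 0% in the Fertile and 21.7%, 9.68% and 4.55% in the Sub-fertile libraries, without overlap. Most counts of both strands are of miR-501-3p, a member chosen for its lower Sub-fertile mean. That choice favours a higher Sub-fertile share, so nothing is read from the lack of overlap. The 5p strand, which is not a member, was 6.66, 0 and 0 scaled CPM in the Fertile libraries. In the Sub-fertile ones it was 31.2, 12.3 and 3.48, and the groups overlapped. Its ratio of summed counts, Sub-fertile to Fertile, was 3.46, with a 95% exact counting interval of 1.08 to 12.9. The part of each strand in the higher share was not tested. The 95% exact intervals of the 2 Fertile shares of 0 reach 3.00% and 4.02%. The interval of the lowest Sub-fertile share, 0.555% to 15.5%, holds the highest Fertile share. For miR-502b the minor strand went the other way, with 3, 2 and 3 counts in Fertile and 0 in every Sub-fertile library, where miR-502b-3p itself had only 0, 5 and 10 counts.

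Within the groups the members did not move as a block. With each group's mean removed, Pearson's r over the 6 libraries had a median of -0.11 over the 28 pairs of members, from -0.96 to 0.97, beside 0.02 over all 27261 pairs of miRNAs tested. These values share 6 libraries, leave few degrees of freedom and are a description. The highest was that of the 2 miR-532 strands, at 0.97, which went to 0.59 without Sub-fertile replicate 1. miR-660-5p had 0.68 with miR-500-3p and -0.91 with miR-501-3p, whose genes are neighbours. Under plain CPM the median was 0.02, and on scaled CPM without Sub-fertile replicate 1 it was -0.07.

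The tested miRNAs outside the cluster that were most like the mean of the members, by the same group-centred r over 6 libraries, were miR-425-5p (r = 0.93), miR-181d-5p (0.91), miR-27b-3p (0.89), miR-152-3p (0.89) and miR-872-5p (0.83). The spread of that mean came mostly from miR-502b-3p and miR-188-5p, each with a value of 0 in 1 Sub-fertile library: their pooled SD within groups was 1.77 and 1.44 on the log2 scale, against 0.05 to 0.68 for the other 6. These 5 miRNAs are the highest of all tested non-members over only 6 libraries, so part of each r comes from the picking. Of the 5, miR-27b-3p fell between the groups (log2 difference -1.43, limma adjusted p = 0.0298), and it stood at 5938, 3581 and 3397 in the Fertile and 1486, 1258 and 1961 in the Sub-fertile libraries. miR-425-5p had a log2 difference of -0.28 and miR-181d-5p one of 0.57, and neither passed.

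Marker miRNAs of other sources were summed in the same libraries, with no test. The erythroid and platelet list, with 4 of 8 miRNAs in the table, summed to 12.0 to 37.1 in Fertile and 6.24 to 20.4 in Sub-fertile libraries, with overlap and with miR-144-3p and miR-144-5p at 0 throughout. The leukocyte list, with 6 of 6 in the table, summed to 311 to 695 and 767 to 1118, without overlap. Of its members, miR-146a-5p (58.6 to 119 in Fertile, 339 to 444 in Sub-fertile) and miR-142-3p (32.0 to 51.0, 53.1 to 156) did not overlap, while the other 4 did. The gap between the sums rested on miR-146a-5p, without which the sums of the groups overlap. The testis and germ cell list, with 6 of 7, summed to 9652 to 11674 in Fertile and 11866 to 22861 in Sub-fertile libraries. This gap was narrow, and without miR-34c-5p, or without miR-449a-5p, the sums of the groups overlap. The sum was highest in Sub-fertile replicate 1, the library with the high miR-532 strands. There miR-34c-5p stood at 11502 and miR-449a-5p at 3909, whereas miR-508-3p (6950), miR-506-3p (99.9) and miR-507-3p (43.7) were at their lowest of the 6 libraries. The striated muscle list, with miR-133a-3p and miR-133b-3p at 0, summed to 11.6 to 60.0 and 181 to 268. This gap was that of miR-206-3p (9.27 to 27.2 and 175 to 252), as miR-1-3p overlapped and was highest in Fertile replicate 1 (50.7). The part of these sources, and of library depth, in the lower cluster levels was not tested.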

How the data were processed

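Small RNA of seminal plasma vesicles was sequenced in 6 libraries, 3 per group. Per the labels' protocols, vesicles were isolated by ultracentrifugation and size exclusion chromatography, followed by QIAseq miRNA library preparation; the submitters' processing notes name bcl2fastq, Bowtie2 2.2.2, DESeq2 and OryCun2.0. The authors deposited 1 normalized signal per miRNA and library, called CPM. Dividing by the smallest value above 0 in a library gave whole numbers (100% of values within 0.001), so counts were recovered. The implied factors equal edgeR's TMM factors, from which TMM scaling was inferred. The labels leave unsaid if reads or molecular identifiers were counted.

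The test was limma 3.58.1 (R 4.3.3) with a mean-variance trend, fitted two-sided to log2(value + 1). P-values were adjusted over the 234 miRNAs at 10 or more in at least 3 libraries. On this scale the differences of low miRNAs depend on the pseudocount and on values of 0. That of miR-188-5p was -1.84, and -0.70 with a pseudocount of 10. For miR-502b-3p it was -2.03, against -1.03 in edgeR. edgeR 4.0.16 and DESeq2 1.42.0 were run on recovered counts, and edgeR called 8 miRNAs. The fits were tested on simulated data. Levels were compared by exact permutation (SciPy 1.17.1). Other settings were pseudocounts, filters, scalings, weights, a replicate block and leaving out each library. Named miRNAs are the members, other strands of their hairpins and the 5 most alike; likeness by seed was not analysed here, as sequences were not used. The members and lists were chosen with earlier results of these data known. The labels call the replicates biological but tie none to a single male, so p-values measure the spread between libraries.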

Additional observations from a re-analysis of the deposited data

How the results depend on the processing

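All 8 members kept a log2 difference below 0 in every setting that held them. They were chosen for a lower Sub-fertile mean in these same libraries, so the settings do not test that direction. Of 120 values over members and settings, 115 moved by less than the pooled SD within groups. That SD was 1.77 for miR-502b-3p and 1.44 for miR-188-5p, so even large shifts of these fell below it. The 5 values that moved by more were all of miR-502a-3p, whose SD was 0.05. The count of 115 therefore does not show that the differences are stable. The median over members stayed between -1.07 and -0.89; plain CPM moved the median of all miRNAs from -0.10 to 0.02 and that of the members from -1.05 to -0.94, and the gap between them was -0.96 under both. Ranges were widest for miR-502b-3p (-2.80 to -0.59) and miR-188-5p (-2.73 to -0.70), the members with the fewest counts. The count of miRNAs called was 8; it was 16 with DESeq2, 14 with a filter at 100 (131 tested, with miR-660-5p and miR-501-3p of 5 members called), 1 without a trend and 45 with array weights. Leaving out 1 library gave 3 to 39: 3 without any 1 Fertile library, 39 without Sub-fertile replicate 1 and 5 without replicate 2 of that group. With the replicate number as a block limma called 0 miRNAs, with 43 at an unadjusted p under 0.05. Deviations from the group means correlated between libraries of 1 number at 0.05, -0.12 and 0.10. The labels state no pairing by number, and with 3 libraries per group these values cannot decide it. The median r among members reversed to 0.0187 in plain CPM; the cause of these shifts was not tested. Neighbouring pairs that passed numbered 0 in every setting, and with 5 libraries none could pass, as the smallest p is 0.0625. Depth limits miR-502b-3p and miR-188-5p most, and Sub-fertile replicate 1 among libraries.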
